A study of Mus musculus with 8 samples.

Results

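The guanylate-binding proteins are a family of large GTPases, and 4 of their mouse genes, Gbp2, Gbp3, Gbp6 and Gbp7, were followed here through microarrays of the aorta. The 4 genes were chosen for being higher in the mutant than in the control arrays of these same data, so their difference between the groups is given as a description with no test. They are 4 of the 18193 genes that have at least 1 probe set annotated to a single symbol, and they have 7 probe sets: 2 each for Gbp2, Gbp6 and Gbp7 and 1 for Gbp3. A probe set is the group of short oligonucleotides on an Affymetrix array that together measure a transcript. All 7 passed the filter on low values.

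The series measured total RNA of the aorta of 4 month-old mice, with 4 mutant and 4 control arrays. The mutants carried a floxed gene of serum response factor (SRF-flex2neo), a transcription factor of muscle and cytoskeleton genes, together with SM22CreERT2ki/+, in which Tagln (SM22), a smooth muscle gene, carries on 1 of its alleles a Cre that tamoxifen switches on. The controls were littermates with SRF-flex2neo and without the Cre. Mutants and controls both received 1 mg of tamoxifen intraperitoneally for 3 days and were killed 8 days afterwards. Cre from this allele is made where Tagln is active, and the other cells of the aorta keep Srf. The titles number 2 sets: set 2 holds mutants 3 and 4 with controls 3 and 4, and set 1 holds mutants 1 and 2 with controls 1 and 2. The meaning of the set was not given in the sources used here. Since nothing states that the arrays are of different mice, the p-values reflect the spread among arrays alone, part of which may be technical.

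Guanylate-binding proteins belong to the dynamin superfamily and are among the genes most strongly induced by interferon gamma in many cell types, endothelial cells and macrophages included. Interferon gamma acts through its receptor and Janus kinases, its response genes often carry GAS elements, and it induces the factor IRF1. IRF factors bind interferon-stimulated response elements (ISRE). The proteins gather on the vacuoles of intracellular pathogens and on bacteria, in concert with the immunity-related GTPases and autophagy proteins, and act upstream of inflammasomes. In the mouse the genes lie in 2 clusters. In the GRCm38.p6 assembly, chromosome 3 holds Gbp5, Gbp7, Gbp3, Gbp2b, Gbp2 and the pseudogene Gbp2-ps, in this order, and chromosome 5 holds Gbp8, Gbp9, Gbp4, Gbp10, Gbp6 and Gbp11. Gbp2, Gbp3 and Gbp7 thus come from 1 cluster and Gbp6 from the other.

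The members moved together across the arrays, and the promoters of the 3 that had an entry, all on chromosome 3, are shown. The sequences are those of RefSeq on GRCm38.p6, from 250 bases before to 50 bases after the gene's start, 5′ to 3′ on the + strand, with matches to the ISRE motif in capitals. The windows are chr3:142620413-142620712 for Gbp2, chr3:142559794-142560093 for the first of the 2 entries of Gbp3, and chr3:142530086-142530385 for Gbp7.
Gbp2: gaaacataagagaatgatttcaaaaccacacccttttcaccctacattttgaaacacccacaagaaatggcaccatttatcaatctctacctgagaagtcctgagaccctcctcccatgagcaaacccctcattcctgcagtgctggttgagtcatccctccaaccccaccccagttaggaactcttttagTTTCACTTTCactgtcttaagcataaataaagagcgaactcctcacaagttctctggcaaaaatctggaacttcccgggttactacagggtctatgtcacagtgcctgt
Gbp3: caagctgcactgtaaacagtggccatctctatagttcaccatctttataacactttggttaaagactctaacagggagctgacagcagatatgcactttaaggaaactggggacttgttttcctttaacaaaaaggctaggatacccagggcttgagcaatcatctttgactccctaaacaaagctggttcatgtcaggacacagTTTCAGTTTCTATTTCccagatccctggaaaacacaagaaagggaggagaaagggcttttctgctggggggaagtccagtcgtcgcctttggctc
Gbp7: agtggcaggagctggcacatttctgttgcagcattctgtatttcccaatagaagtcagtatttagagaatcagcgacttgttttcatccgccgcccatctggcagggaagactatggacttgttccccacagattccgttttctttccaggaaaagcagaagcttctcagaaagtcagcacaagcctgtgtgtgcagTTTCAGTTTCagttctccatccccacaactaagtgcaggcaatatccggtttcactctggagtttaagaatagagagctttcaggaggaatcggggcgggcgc
The ISRE motif searched was GAAA, any 2 bases, then GAAA, on both strands, and it reads here as its reverse complement. Gbp2 had 1 match, 59 to 50 bases before the start, and Gbp7 had 1, 53 to 44 bases before it. Gbp3 had 2 overlapping matches, 45 to 36 and 39 to 30 bases before the start. All 3 genes thus carried the motif shortly before their start, whereas 3.44% of the 32851 promoters of this length held it anywhere. The second entry of Gbp3 held none. The GAS motif, TTCNNNGAA, whose reverse complement is the same pattern, was in the Gbp7 window at 106 to 98 and 87 to 79 bases before the start and in 8.3% of all promoters. The CArG box, the element that SRF binds, was in none of the 3 genes' windows and in 1.63% of all promoters. Of the other family genes with an entry, Gbp2b and Gbp5 each had 1 ISRE match, and Gbp5 had 2 of GAS. A match is a run of letters and does not show that a factor binds there.

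All 7 member probe sets were higher in mutant than in control aortas, and they were higher in both sets. In log2 units, where 1 is a 2-fold difference, the values of mutant minus control lay between 1.02 for the brighter Gbp7 probe set and 2.05 for the brighter Gbp6 probe set. The median was 1.26, against -0.04 over all 27023 probe sets tested. Among the 12173 genes ranked by the difference of their brightest probe set, Gbp6 stood at rank 18, Gbp3 at 103, Gbp2 at 346 and Gbp7 at 442. In RNA of a whole tissue, more cells of a type and more RNA per cell cannot be told apart.

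Gbp6, which coats vacuoles of Toxoplasma in mouse cells, had the largest difference. Its brighter probe set, 1447927_at, read 10.06, 10.36, 7.40 and 6.79 in mutants 1 to 4, against 7.47, 7.24, 5.82 and 5.88 in controls 1 to 4. The mutants of set 1 stood far above all other arrays, and neither mutant of set 2 exceeded the higher control of set 1. Mean ± SD was 8.65 ± 1.82 in mutants and 6.6 ± 0.87 in controls (n = 4 each), and with set in the fit the difference was 2.05 with an SE of 0.34, a 4.14-fold higher level. The dimmer probe set, 1438676_at, read 7.53, 8.17, 4.96 and 3.97 in mutants 1 to 4, against 5.24, 4.70, 4.28 and 3.89 in controls 1 to 4. In set 2 the lower mutant lay below the higher control, so the groups overlapped there, and the difference was 1.63 with an SE of 0.55.

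Gbp3, recruited to the same vacuoles, has 1 probe set, 1418392_a_at. It read 9.05, 9.70, 6.97 and 6.74 in mutants 1 to 4, against 7.49, 7.31, 5.98 and 5.51 in controls 1 to 4. Each mutant was above both controls of its set, and the set 2 mutants were below the set 1 controls. The mean was 8.12 ± 1.48 in mutants and 6.57 ± 0.98 in controls (SD, n = 4 each), with a difference of 1.54 and an SE of 0.24, 2.91-fold.

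Gbp2 carries a prenylation signal that anchors it to membranes and is needed for resistance of mice to Toxoplasma. The brighter probe set, 1435906_x_at, read 11.30, 11.89, 9.48 and 9.47 in mutants 1 to 4, against 9.91, 9.78, 9.09 and 8.92 in controls 1 to 4. The other, 1418240_at, read 9.98, 10.46, 8.35 and 8.03 in mutants 1 to 4, against 8.63, 8.50, 7.70 and 7.42 in controls 1 to 4. On both probe sets the mutants were above the controls within each set, and the order of the 8 arrays by set and genotype was the same. The differences were 1.11 with an SE of 0.27 and 1.14 with an SE of 0.24, which are 2.16-fold and 2.21-fold.

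Gbp7 has been linked in mouse macrophages to assembly of the NADPH oxidase on phagosomes. The brighter probe set, 1434380_at, read 9.67, 9.98, 8.21 and 7.86 in mutants 1 to 4, against 8.35, 8.54, 7.50 and 7.25 in controls 1 to 4. The dimmer one, 1425156_at, read 8.20, 8.75, 7.84 and 7.26 in mutants 1 to 4, against 6.65, 7.22, 6.82 and 6.33 in controls 1 to 4. On the dimmer probe set every mutant was above every control, whatever the set, and on the brighter one this held within each set. The differences were 1.02 with an SE of 0.18, 2.03-fold, and 1.26 with an SE of 0.24, 2.39-fold.

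**Figure D1:**
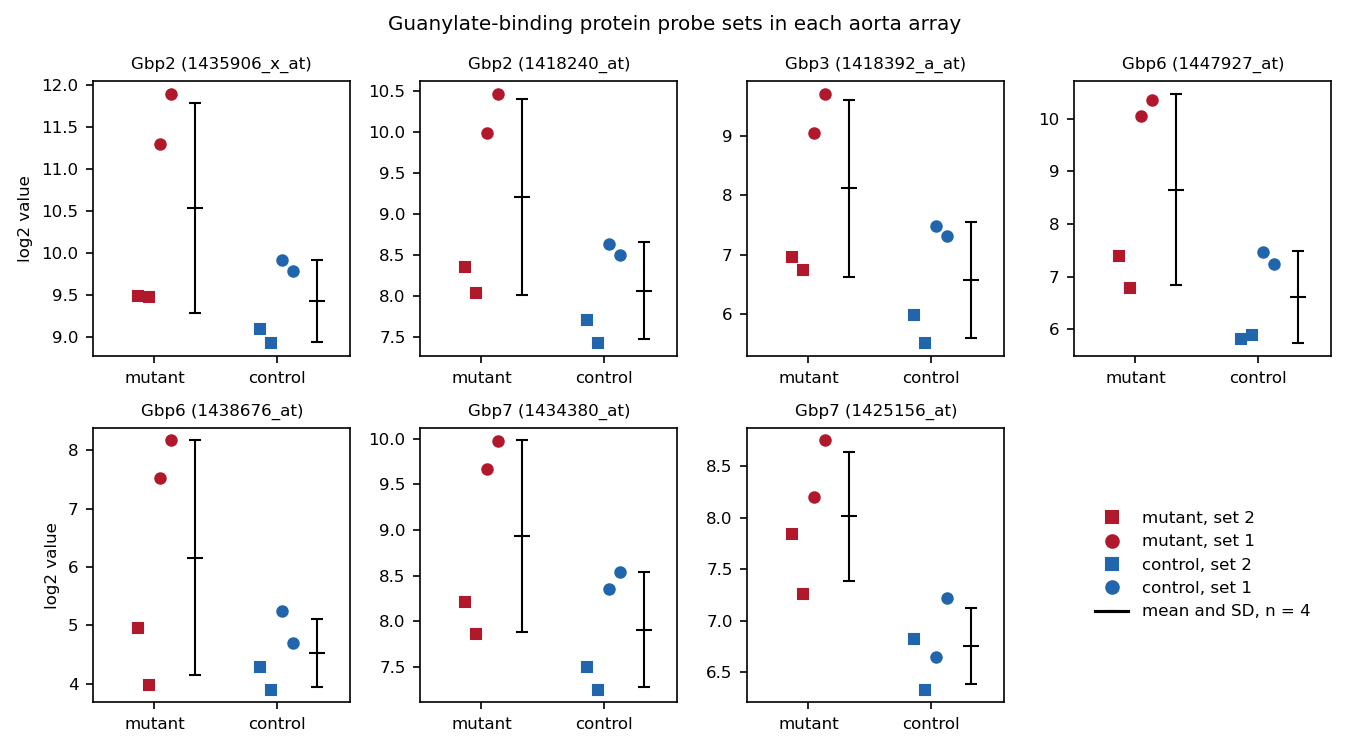
Log2 value (y axis) of the 7 member probe sets in each array, mutants left and controls right, squares for set 2 and circles for set 1, with mean and SD of the 4 arrays beside each group. The set 1 mutants are the highest arrays in every panel, and Gbp6 1447927_at reaches 10.36 in mutant 2, against a highest control of 7.47.

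Counted by groups, 6 of the 7 probe sets had every mutant above every control of the same set in both sets, where 4.11% of all tested probe sets did. Over all 8 arrays at once, 1 of the 7 had every mutant above every control, where the share of all tested probe sets was 1.43%. With limma and set as a block, 0 of the 27023 probe sets passed an adjusted p of 0.05 for mutant minus control, a share of 0%. At an unadjusted p under 0.05, 1217 probe sets were higher in mutants, 4.5%, and 1364 were lower, 5.05%. All 7 member probe sets were among those higher, and since the genes were chosen on this contrast nothing is read from these counts. Leaving out control 3 gave 11 probe sets that passed in the whole table.

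The family was lower in set 2 than in set 1, in mutants and in controls. This contrast, set 2 minus set 1 with genotype in the fit, was not the one the genes were chosen on. The choice was made with earlier results of these data known. Of the 7 probe sets, 6 were lower in set 2 at an adjusted p under 0.05 in limma, where 10.6% of all tested probe sets were. Several of them share a gene and all followed one another over the arrays, so these calls are not separate results. The median over the 7 was -1.52, against 0.01 over all probe sets. Gbp6 1447927_at differed by -2.31, or 4.96-fold lower, with an SE of 0.34 and an adjusted p of 0.00511, and was lower in both genotypes. Gbp3 differed by -2.09 with an SE of 0.24 and an adjusted p of 0.00221.

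The smaller set differences were those of Gbp2 and Gbp7. Gbp2 differed by -1.48 (adjusted p 0.0114) on 1435906_x_at and by -1.52 (adjusted p 0.00618) on 1418240_at in limma. For Gbp7 1434380_at the difference was -1.43, with an adjusted p of 0.00306 in limma. The dimmer Gbp7 probe set differed by -0.64 with a 95% interval of -1.22 to -0.06 and an adjusted p of 0.103, and did not pass. Gbp6 1438676_at passed at -2.13 with an adjusted p of 0.0342, which lay between 0.0664 and 0.0909 when control 1, control 4, mutant 1, mutant 3 or mutant 4 was left out. The controls alone ran the same way as the whole, being lower in set 2 by 0.36 to 1.66 on the 7 probe sets, where the mutants were lower by 0.92 to 3.38.

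The difference between mutant and control was smaller in set 2 than in set 1 for all 7 probe sets. It was 1.25 in set 2 and 2.86 in set 1 on Gbp6 1447927_at, and 0.38 in set 2 and 2.88 in set 1 on Gbp6 1438676_at. Gbp3 differed by 1.11 in set 2 and 1.98 in set 1. The Gbp2 probe sets differed by 0.47 and 0.63 in set 2 and by 1.75 and 1.66 in set 1. For Gbp7 these values were 0.66 and 0.98 in set 2 and 1.38 and 1.54 in set 1. The difference of these differences was tested as the interaction of genotype and set. None of the 7 passed in limma, with adjusted p from 0.535 to 0.824, while 14 of all tested probe sets did, 0.0518%. At an unadjusted p under 0.05, 5 of the 7 had a lower value of mutant minus control in set 2, where 2.59% of all tested probe sets did. The estimates lay between -2.5 for Gbp6 1438676_at, with a 95% interval of -3.92 to -1.08, and -0.56 for Gbp7 1425156_at, with an interval of -1.72 to 0.59.

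**Figure D2:**
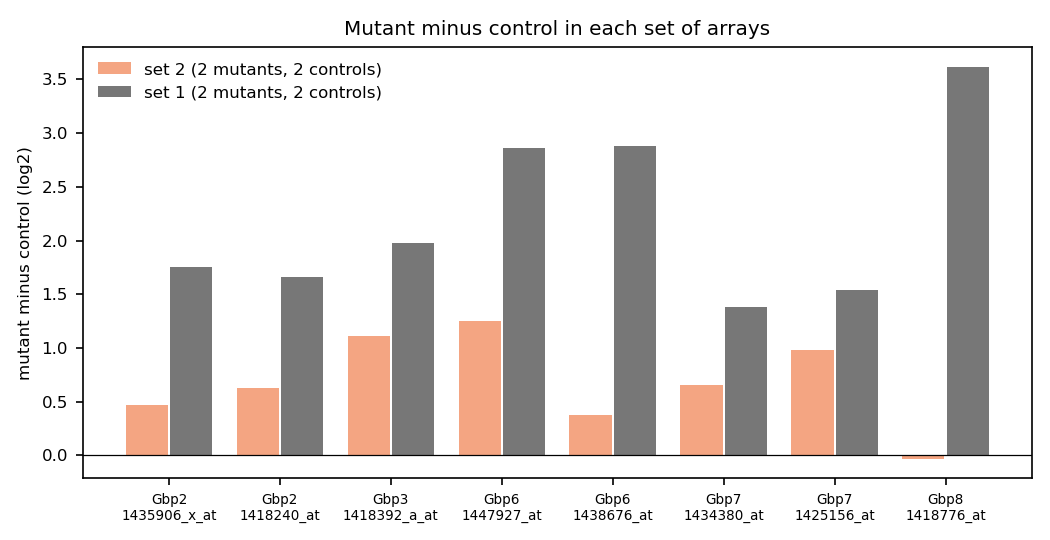
Mutant minus control in log2 units (y axis) for the 7 member probe sets and Gbp8 (x axis), set 2 left of set 1 in each pair of bars, each bar from 2 mutants and 2 controls. Every member bar is above 0 and shorter in set 2, and Gbp8 stands at -0.03 in set 2 and 3.62 in set 1.

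Mutant 1 and mutant 2 both carried the high values, and 1 array did not make the pattern. Left out in turn, the 8 arrays gave Gbp6 1447927_at differences between mutant and control of 1.83 to 2.33, and Gbp3 of 1.33 to 1.72. No member's difference changed sign in any alternative. Without mutant 1, the interaction estimates were -1.26 and -1.57 for the Gbp2 probe sets and -1.76 and -2.82 for those of Gbp6. The set 1 mutants are then mutant 2 alone. That array correlated with the others at 0.926 to 0.952, lower than those did with one another. The same omission took the number of calls over all probe sets to 2750, and leaving out control 1, control 2, mutant 3 or mutant 4 took it to 0.

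The member probe sets followed one another closely over the 8 arrays. For the 15 pairs without the dimmer Gbp7 probe set, Pearson's r lay between 0.956 and 0.994, and for the 6 pairs with it between 0.849 and 0.885. After genotype and set had been removed from the values, r lay between 0.812 and 0.981 for the 15 pairs and between 0.583 and 0.896 for the 6. All pairs share the same arrays, pairs of 1 gene share a transcript, and the remaining values still hold the unequal effect in the 2 sets, so these are descriptions. Each r over 8 arrays also takes in the gap between the set 1 mutants and the other arrays.

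Elsewhere in the family, Gbp8, on chromosome 5 with Gbp6, was high in the mutants of set 1 and in no other array. Probe set 1418776_at read 3.15 and 3.01 in mutants 3 and 4 and 6.80 and 6.73 in mutants 1 and 2, against 3.18, 3.12, 3.18 and 3.03 in controls 1 to 4. The mutants of set 1 stood apart and the other 6 arrays lay between 3.01 and 3.18, below the median of every array and close to 2.97, the lowest mean the filter kept. These low readings are not shown to be above background. Sizes against them are thus differences between readings, and their narrow spread is that of low readings. Its interaction was -3.64, with an SE of 0.16, a 95% interval of -4.03 to -3.25 and an adjusted p of 0.0119 in limma, and its unadjusted p of 4.41e-07 was the smallest in the table. When control 1, 2 or 3 or mutant 3 or 4 was left out, the estimate stayed between -3.71 and -3.56 and the adjusted p was 0.0577 to 0.195. Its mutant minus control over both sets was 1.79 with an SE of 0.7 and an adjusted p of 0.509.

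The remaining relatives gave no such pattern. Gbp2b, the neighbour of Gbp2 and Gbp3, read 1.79 to 1.82 in mutants and 1.79 to 1.83 in controls other than control 2, which read 4.92, and it fell below the filter. A probe set shared by Gbp8 and Gbp4 read 2.97 to 3.81 in mutants and 3.07 to 3.98 in controls, and it is not assigned to either gene. Gbp4, Gbp5, Gbp9, Gbp10, Gbp11 and Gbp13 had no probe set annotated to them alone. The atlastins, which are GTPases of the endoplasmic reticulum related to the family, had no direction common to Atl1 and Atl3. The brightest Atl3 probe set, 1435890_at, differed by -0.46 with an SE of 0.13 and an adjusted p of 0.438 in limma. Every Atl3 probe set had a negative difference, from -0.04 on 1429797_at to -0.80 on the dimmest, 1424498_at. For 1424498_at the SE was 0.14 and the adjusted p in limma 0.375. Atl1 1428260_at differed by 0.24 with an SE of 0.78, its mutant 2 reading 8.95 and the other mutants 4.69 to 5.57, against 5.13 to 6.66 in controls, and without mutant 2 the difference was -0.62.

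The genes that signal to the family were looked at from the receptor inward. Interferon receptors and Janus kinases differed little: 5 of 7 tested genes had a positive difference, with a median of 0.06 that was -0.02 with arrays centred on their medians, and none reached an unadjusted p of 0.05. Ifngr1 and Ifngr2, the chains of the interferon gamma receptor, differed by 0.24 (SE 0.12) and -0.51 (SE 0.27). The ligand genes Ifng and Ifnb1 were below the filter on low values. Of 8 tested transcription factors that act on Gbp genes, 7 were on the positive side, with a median of 0.51, and 5 had an unadjusted p under 0.05, although none passed after adjustment in limma. Over all tested probe sets 4.5% were higher and 5.05% lower at that unadjusted limit. These shares stand beside the counts of this list and of those that follow.

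Irf1, the factor that interferon gamma induces and that acts on Gbp promoters, read 8.79, 9.04, 7.64 and 7.26 in mutants 1 to 4, against 7.82, 7.74, 6.98 and 6.90 in controls 1 to 4. Its set 1 mutants were the highest arrays and its set 2 controls the lowest. Its difference was 0.82 with an SE of 0.16 and an adjusted p of 0.375. Nlrc5, the transactivator of class I antigen presentation genes, differed by 1.22 (SE 0.28, adjusted p 0.384), with 1.18 in set 2 and 1.26 in set 1. Irf7, a factor of type I interferon responses, differed by 1.03 (SE 0.25, adjusted p 0.393), and Irf9, which binds DNA for the type I interferon complex, by 0.48 (SE 0.12, adjusted p 0.408).

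Of 8 inhibitors of the signal, 5 were on the positive side, with a median of 0.10 that was -0.14 with the stricter filter, and 3 had an unadjusted p under 0.05. Usp18, an ISG15 protease that blocks the type I receptor, had the largest difference at 1.79 (SE 0.55, adjusted p 0.462). Its controls read 2.78 to 3.59 and its mutant 4 read 3.07, below the median of every array. The size is thus against readings not shown to be above background. Socs3, an inhibitor of Janus kinases, differed by 0.42 (SE 0.17, adjusted p 0.511).

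The immunity-related GTPases, which act beside the family on vacuoles, had positive differences alongside it that did not pass the adjusted test in limma. All 7 tested genes had a positive difference, with a median of 1.45 over both sets, 0.92 in set 2 and 1.75 in set 1, and 6 had an unadjusted p under 0.05. Irgm2, a regulatory member, read 9.91, 10.33, 8.21 and 7.74 in mutants 1 to 4, against 8.23, 8.01, 7.15 and 6.99 in controls 1 to 4. As with Gbp6, neither set 2 mutant exceeded the higher control of set 1. The differences were 1.45 (SE 0.25) for Irgm2, 1.64 (SE 0.32) for Ifi47, 1.56 (SE 0.30) for the effector Iigp1 and 0.68 (SE 0.13) for Irgm1, each with an adjusted p of 0.375.

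Other targets of interferon gamma were alike in this, with 14 of 15 tested genes on the positive side, a median of 1.31, and 12 at an unadjusted p under 0.05. Their median was 0.27 in set 2 and 1.73 in set 1. Psmb9, an immunoproteasome subunit, differed by 1.80 (SE 0.49) and Tap1, the peptide transporter of class I presentation, by 1.51 (SE 0.41), both with an adjusted p of 0.432. Serping1, the inhibitor of complement C1, differed by 0.66 (SE 0.17, adjusted p 0.421) and Parp14, an ADP-ribosyltransferase, by 0.78 (SE 0.19, adjusted p 0.390).

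The next lists hold genes that work with the proteins after they are made. Of 7 tested inflammasome genes, 5 were on the positive side, with a median of 0.35, and 1 had an unadjusted p under 0.05. That gene was Casp1, the inflammasome protease, at 1.27 (SE 0.35, adjusted p 0.44), with 0.49 in set 2 and 2.06 in set 1. Autophagy genes that place the proteins on vacuoles had a median of -0.04, with 3 of 11 on the positive side, and prenylation enzymes had a median of -0.06, with 3 of 8. In each of these lists 1 gene had an unadjusted p under 0.05 in limma. That is near the share over all tested probe sets, 4.5% higher and 5.05% lower, so nothing is read from it. Gabarap, one of the ubiquitin-like autophagy proteins, was the one among autophagy genes, at -0.14 (SE 0.06, adjusted p 0.521). Among prenylation enzymes it was Fnta, a subunit of both farnesyl and geranylgeranyl transferase, at 0.21 (SE 0.09, adjusted p 0.519), while Pggt1b, the partner of Fnta in the geranylgeranyl enzyme, differed by -0.16 (SE 0.08, adjusted p 0.552).

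**Figure D3:**
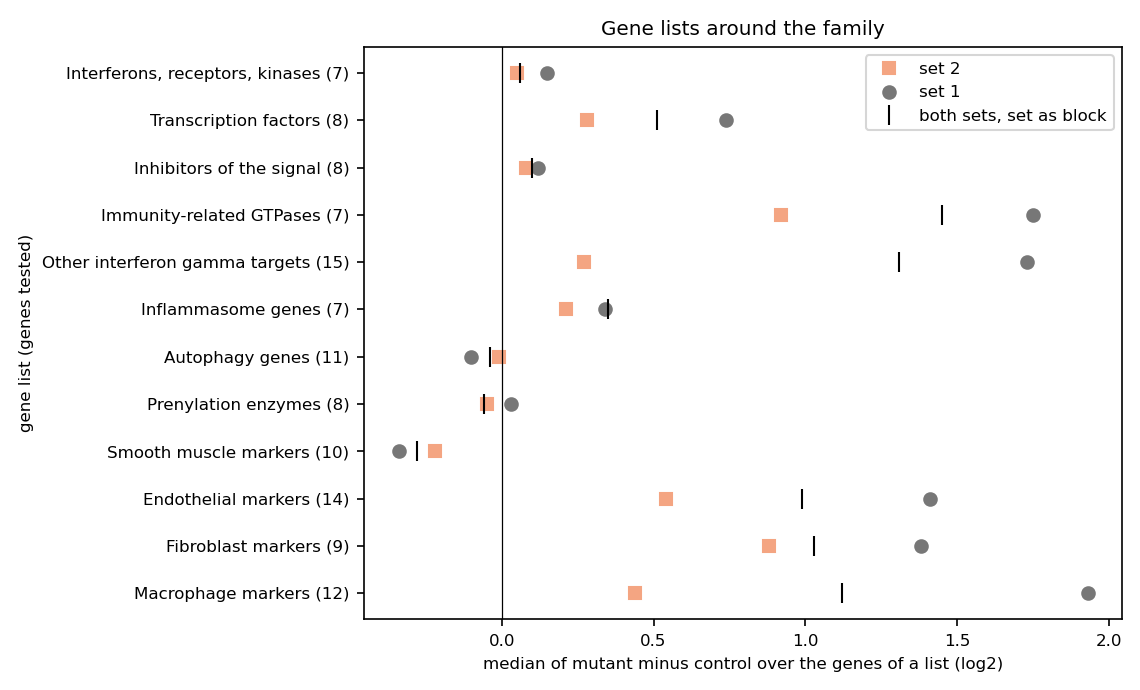
Median over the tested genes of each list (y axis, number of genes in brackets) of mutant minus control in log2 units (x axis), for set 2 as squares, set 1 as circles and both sets with set as a block as ticks. The immunity-related GTPases lie at 0.92 in set 2 and 1.75 in set 1, and the macrophage markers at 0.44 in set 2 and 1.93 in set 1.

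Markers of several cell types also had positive differences that did not pass the adjusted test, and their part in the family's values was not tested. All 12 macrophage markers had a positive difference, with a median of 1.12, and 11 had an unadjusted p under 0.05. The mean of the list was 6.55 to 7.73 in mutants and 5.39 to 6.51 in controls, and its median difference was 0.44 in set 2 and 1.93 in set 1. All 14 endothelial markers were on the positive side, with a median of 0.99 and list means of 7.83 to 9.63 in mutants and 7.2 to 7.92 in controls. The 9 adventitial fibroblast markers were too, with a median of 1.03 and list means of 10.89 to 11.17 in mutants and 9.44 to 10.88 in controls. None of these lists' genes passed the adjusted test in limma, and Ptprb, a phosphatase of endothelial cells, had an adjusted p of 0.290 at a difference of 1.00 (SE 0.13). Without control 3, Ptprb and the fibroblast genes Scara5 and Pi16 passed in limma, with adjusted p of 0.0426, 0.015 and 0.0241, and with array weights the endothelial factor Sox18 passed, at 1.13 with an adjusted p of 0.0372.

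Few lymphocyte markers could be read. Of 13 T and NK cell markers only Cd4 and Cd8a passed the filter, and Cd3e, Cd3d, Cd3g, Ncr1, Nkg7 and Gzma were below it. Cd4 and Cd8a had differences of -0.15 (SE 0.12) and -0.06 (SE 0.06). They read 3.04 to 3.63 and 3.37 to 3.69 over the arrays, below the median of every array, and are not shown to be above background. These differences thus do not show whether T cell content was alike in the groups. Jchain, the joining chain of antibodies, read 10.02, 7.66, 2.67 and 3.32 in mutants 1 to 4, against 3.33, 6.12, 2.68 and 2.67 in controls 1 to 4, so control 2 was also high. The 4 tested adipocyte markers had a median of -0.47 in set 2 and 2.92 in set 1, so fat markers and the members were both highest in the set 1 mutants. Adipoq, a hormone of adipocytes, read 9.66 and 10.26 in mutants 3 and 4 and 11.90 and 13.63 in mutants 1 and 2, against 9.85 to 10.64 in controls. Its controls of set 2 were above those of set 1, the opposite of the members. The 2 tested red cell markers had a median of 0.42.

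The smooth muscle markers that define the aortic media were high in every array and on the negative side in mutants. All 10 differed by less than 0, with a median of -0.28, and 6 had an unadjusted p under 0.05. Tagln, whose allele holds the Cre, read 14.89 to 15.12 in mutants and 15.29 to 15.37 in controls, a difference of -0.29 with an SE of 0.05 and an adjusted p of 0.375. Mutants alone carry this Cre allele, so for Tagln the knock-in and the loss of Srf cannot be told apart. The brighter Srf probe set read 9.54 to 10.34 in mutants and 10.15 to 10.52 in controls, a difference of -0.20 with an SE of 0.19 and an adjusted p of 0.686. Which part of Srf is deleted was not stated, so this value does not check the deletion. Array medians were 3.72 to 3.98, and mutant 2 correlated with the others at 0.926 to 0.952, whereas among those the correlation was 0.985 to 0.994 for arrays of the same set and 0.965 to 0.975 for arrays of different sets.

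The genes whose values over the 8 arrays were most like the mean profile of the members were Irf1 (r = 0.996), Irgm2 (0.995), Tap1 and Igtp (0.991 each), Hsd3b7 and Psmb9 (0.989 each), Srgn (0.988) and Ifi47 (0.987). Of the 12169 genes compared, 234, or 1.92%, had an r over 0.9, so a high r over 8 arrays is common here. Among these 8 genes are an interferon gamma factor, 3 immunity-related GTPases and 2 genes of antigen processing, beside Hsd3b7, an enzyme of bile acid synthesis, and Srgn, a proteoglycan of secretory granules. Irgm2, Igtp and Srgn held the ISRE motif in their promoter window and the other 5 did not. The lowest r values were those of Atg13, a starter of autophagy, at -0.988, Csnk1g3 at -0.976, and Pbxip1 and BC037032 at -0.974 each. After genotype and set had been removed from the values, the highest were BC003965 (0.994), Marcksl1 and Ezr (0.987 each), Knop1, Ifi47, Car3 and Psmb8 (0.983 each) and Irgm2 (0.979), of which Ifi47 and Irgm2 stood in both lists.

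**Figure D4:**
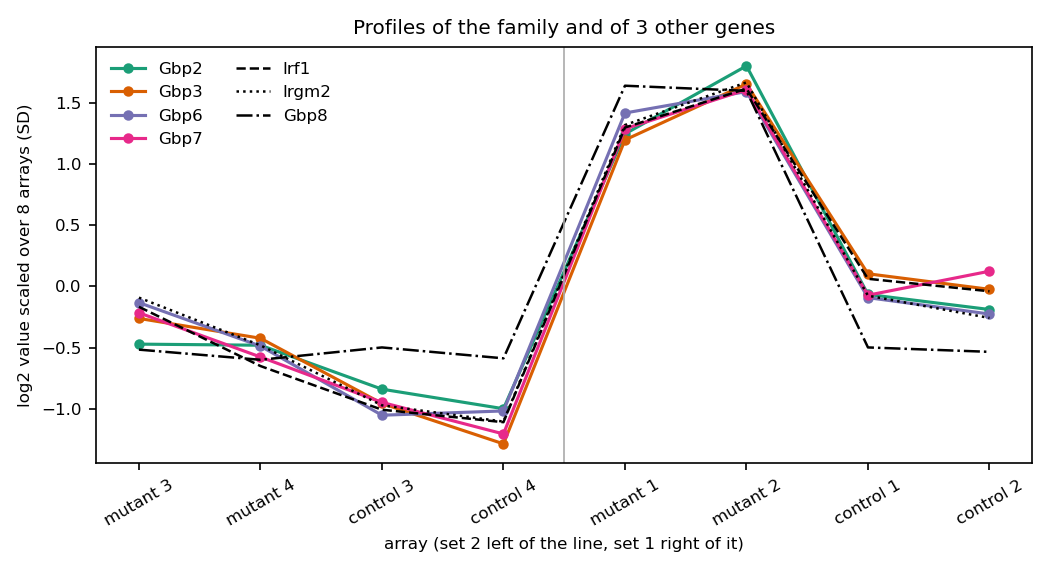
Log2 values scaled to mean 0 and SD 1 over the 8 arrays (y axis) for the brightest probe set of each member and for Irf1, Irgm2 and Gbp8, by array (x axis), set 2 left of set 1 and mutants left of controls within each set. The 4 members, Irf1 and Irgm2 run together with their peak at mutant 2, and Gbp8 is raised in mutants 1 and 2 alone.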

How the data were processed

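RNA of 8 aortic samples was hybridised to Affymetrix mouse arrays. The authors deposited log2 values of 45037 probe sets, which run between 0.9 and 15.82 and from which the scale was read. The submitters' processing notes name GCOS, while background correction and normalization were not given in the sources used here. Of the probe sets, 34945 had 1 gene symbol in the platform annotation, 932 several and 9160 none, and those with several were not named. No further normalization was applied. Probe sets in the lowest 40% by mean were left out, and 27023 were tested.

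The model, fitted with limma 3.58.1 (R 4.3.3), held terms for genotype and set and a trend of variance on mean, with two-sided tests and Benjamini-Hochberg adjustment over all tested probe sets, at a threshold of 0.05. SE is the moderated standard error. The interaction of genotype and set was a second fit, and the procedure was tested on simulated data. The members, the 17 gene lists and the tests were chosen with earlier results of these data known. Named were all member probe sets, all probe sets of other family genes, Srf and Tagln, for each list the genes of smallest p, 4 at most, by their brightest probe set, and the genes most and least like the members. Alternatives were other filters, scalings, variance models and array weights, no set term, each array left out and each set alone. The number of arrays limits the precision. Promoters came from RefSeq, which had entries for 3 of the 4 members. Figures were drawn with Python 3.11.15.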

Additional observations from a re-analysis of the deposited data

Results flagged for a closer look

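For Gbp8, mutant minus control in set 2 minus that in set 1 was -3.64 in log2 units. The adjusted p of this interaction was 0.0119 in limma. All arrays but mutants 1 and 2 gave low readings that are not shown to be above background. Whether the call held depended on which array was left out. In a search of 154 groups of 4 arrays, over 77 named probe sets, 13 groups had 1 array far from the other 3. Chance gives about 1 in 20 where the 4 arrays are alike, but each group here mixed arrays of set 1 and set 2. None of the 13 was a member of the family that was followed. A gap between the sets, as the members had, leaves no single array apart, so nothing is read from their absence. Among its relatives, Gbp2b read 4.92 in control 2, Atl1 1452711_at read 7.45 in mutant 2, and 4 Atl3 probe sets had such an array: 1451376_at at 5.22 in mutant 3, 1424499_s_at at 5.08 in mutant 2, 1424498_at at 4.64 in mutant 1 and 1429797_at at 6.35 in control 4. Among inflammasome genes, Il18 read 7.12 in mutant 2, Pycard 7.57 in mutant 1 and Casp1 3.83 in control 4. The phosphatase gene Ptpn11 read 12.11 in control 1. Among cell type markers, Myh11 read 14.57 and Dpt 11.66 in mutant 1, and Cd34 read 10.91 in mutant 4.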

How the results depend on the processing

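No member probe set changed the sign of any of its 3 contrasts under any alternative run. For 6 of the 7 member probe sets, the difference between mutant and control moved by more than the residual SD of the fit reported when each set was fitted alone. That SD also takes in any unequal effect of genotype in the sets. The number of probe sets that passed for mutant minus control was 10 with array weights and 0 to 11 with 1 array left out. For set 2 minus set 1 it was 5796 in the fit reported, 10011 with array weights and 3391 to 7511 with 1 array left out. For the interaction it was 14 in the fit reported, 36 with no filter, 1 with the stricter filter and 0 to 2750 with 1 array left out: 2750 without mutant 1, 62 without mutant 2, 4 without control 4, 3 without control 3 and 0 without control 1, control 2, mutant 3 or mutant 4. The cause was not tested. Centring arrays on their medians moved the median difference of all probe sets to -0.11, against -0.04 as reported. Gbp6 1438676_at had an adjusted p of 0.0571 for the set with no filter. Single probe sets whose mutant minus control changed sign were Gbp8 at -0.03 and Ifnar2 at -0.04 in set 2 alone, Atl1 1428260_at at -0.53 with array weights, -0.17 without control 1, -0.62 without mutant 2 and -0.69 in set 2 alone, Atl1 1452711_at at -0.01 without mutant 2, and Atl3 1429797_at at 0.05 without control 4 and 0.03 in set 1 alone. With 1 array left out, these 3 probe sets ranged from -0.62 to 0.73, -0.01 to 1.39 and -0.10 to 0.05, in this order. Gene list medians that changed sign were -0.02 for receptors and kinases with median centring, -0.14 for inhibitors with the stricter filter, 0.03 for prenylation enzymes in set 1 alone and -0.47 for adipocyte markers in set 2 alone. By Spearman's rho, 3 of the 8 genes most like the members, Irf1, Tap1 and Psmb9, were at or above the rho of rank 8, with ties counted. Their rho was 1 each. Irgm2, Igtp and Hsd3b7 had 0.976 each, Ifi47 0.929 and Srgn 0.927, all below it. No paired analysis was possible because numbers shared between mutants and controls occur in set 2 alone and nothing in the labels says that they pair arrays. With 4 arrays per group the interaction rests on 2 arrays per genotype and set.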

Other observations

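Beside Gbp8, 13 probe sets passed the interaction of genotype and set in limma, and 8 of these had a single gene symbol. In 7 of the 8 the mutants were higher than the controls in set 1 and close to them in set 2. Mpeg1, a pore-forming protein of macrophages, differed between mutant and control by 0.06 in set 2 and 4.08 in set 1, with an adjusted p of 0.0146. Aif1, a macrophage calcium-binding protein, differed by 0.01 in set 2 and 1.70 in set 1 (adjusted p 0.0321), Cd52, a leukocyte surface glycoprotein, by 0.10 in set 2 and 3.56 in set 1, and Coro1a, a leukocyte actin regulator, by 0.12 in set 2 and 3.28 in set 1 (adjusted p 0.0412 each). H2-Q5, a class I histocompatibility gene, differed by 0 in set 2 and 3.85 in set 1, and Ubd, an interferon gamma induced ubiquitin-like protein, by 0.04 in set 2 and 2.23 in set 1 (adjusted p 0.0146 each). The 6 other arrays read 2.76 to 2.79 for H2-Q5 and 2.63 to 2.73 for Ubd, below 2.97, the lowest mean kept, so both passed the filter through the set 1 mutants and their differences are against readings not shown to be above background. Pon1, a lipoprotein esterase best known from liver, differed by 0.18 in set 2 and 4.12 in set 1. Kank1 ran the other way, at -0.11 in set 2 and -1.61 in set 1. It read 4.67 and 4.71 in the set 1 controls, 3.13 and 3.03 in the set 1 mutants and 2.47 to 2.60 in set 2. Kank1 thus passed the filter through the set 1 controls, and its other readings are not shown to be above background. These genes were named because they passed, and without mutant 3 or mutant 4 no probe set of the table did.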
